A study of Mus musculus with 4 samples.

Results

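The 9 genes described here make, store, remove or sense monoamines: *Th*, *Ddc*, *Slc6a3*, *Slc18a2*, *Hdc*, *Maob*, *Drd1*, *Drd2* and *Drd5*. They were taken by symbol from the 31053 genes of the deposited count matrices, and all 9 were found. The counts come from single nuclei of punches of the arcuate nucleus (ARC) of wildtype male C57BL/6J mice, 10 weeks old, in 4 libraries. After 3 weeks of treatment 2 groups of 2 libraries were compared: DOCA-salt mice, which carried a pellet of the mineralocorticoid deoxycorticosterone acetate and were offered saline to drink, and Sham mice, which had surgery without it. Each library held nuclei of a pair of mice pooled after isolation, so the pool is the replicate and the spread between pools includes both mice and preparation. The libraries are named by group and number, and sets of 4 values give DOCA-salt 1 and 2 and then Sham 1 and 2.

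Tyrosine hydroxylase (*Th*) makes the dopamine precursor L-DOPA, aromatic L-amino acid decarboxylase (*Ddc*) turns it into dopamine, the vesicular transporter VMAT2 (*Slc18a2*) loads monoamines into vesicles, and the dopamine transporter (*Slc6a3*) takes dopamine back up. In the ARC and around it, tuberoinfundibular dopamine neurons release dopamine toward the pituitary and restrain prolactin, while histamine neurons of the neighboring tuberomammillary nucleus use histidine decarboxylase (*Hdc*) and the same vesicular transporter. Monoamine oxidase B (*Maob*) breaks monoamines down, and D1-type (*Drd1*, *Drd5*) and D2-type (*Drd2*) receptors raise or lower cyclic AMP.

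*Th* and *Slc6a3* were found in few nuclei, and the stretches before their starts are shown because the results turn on which nuclei carried them. Sequences are from RefSeq on GRCm38.p6, run from 200 to 21 bases before the start, 5′ to 3′ on the strand of the gene, and lie at chr7:142900016-142900195 (minus strand) for *Th* and at chr13:73536547-73536726 (plus strand) for *Slc6a3*. Capitals mark the cyclic AMP response element TGACGTCA in *Th*, whose first base is 45 bases before the start, and the E-box CACGTG in *Slc6a3*, whose first base is 197 before it.
Th: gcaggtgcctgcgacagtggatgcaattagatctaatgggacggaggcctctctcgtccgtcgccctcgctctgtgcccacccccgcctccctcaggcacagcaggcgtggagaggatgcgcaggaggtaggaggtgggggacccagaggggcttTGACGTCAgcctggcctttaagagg
Slc6a3: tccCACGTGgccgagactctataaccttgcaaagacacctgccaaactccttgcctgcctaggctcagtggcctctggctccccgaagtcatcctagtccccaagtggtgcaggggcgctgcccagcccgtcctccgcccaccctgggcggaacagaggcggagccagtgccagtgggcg

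In all, 4 motifs were searched on both strands of the 250 bases before the starts of 8 of the 9 genes, all but *Maob*. Of 32851 promoters, 1.55% held TGACGTCA, 6.02% CACGTG, 12.4% TATAAA and 1.34% the NR4A response element AAAGGTCA. *Ddc* held AAAGGTCA and TATAAA in 1 of its 2 entries, and none of the 4 was found for *Slc18a2*, *Hdc*, *Drd1*, *Drd2* or *Drd5*. A match is a description of these letters and not of a bound site.

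The libraries differed in depth and in which cells they held. A library held between 45126915 and 79437196 UMIs (unique molecular identifiers, which mark single captured transcripts), and 39176 of 41649 barcodes passed the filters of the study, with a median of between 2401 and 8215 UMIs per nucleus. Nuclei were assigned to classes by marker genes that included none of the 9, and 26709 were neurons. Nuclei of the *Agrp* class numbered 468, 3, 40 and 206 and those of the *Pomc* class 165, 8, 16 and 147, so DOCA-salt 2 nearly lacked both ARC types. Striatal-type nuclei, which are not a cell type of the ARC, numbered 679, 58, 4 and 11, and the 202 nuclei with melanin-concentrating hormone markers and 151 with orexin markers in DOCA-salt 2 faced at most 4 in any other library. Between 5 and 49 barcodes were shared by any pair of libraries. Where a library of this kind touches a result, values without it are given.

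Levels below are in CPM, the UMIs of a gene scaled to a total of 1000000 UMIs over the nuclei summed. Fold changes are on the log2 scale with the standard error (SE), and adjusted p is from edgeR's quasi-likelihood test with Benjamini-Hochberg adjustment over all genes tested, with 0.05 as the limit for a call. With 2 pools a side an exact permutation test could not go below 0.33 (2-sided), and p-values of the treatment comparisons measure the spread between these pools. Comparisons of classes or of positive neurons are made within libraries, and their p-values measure how the difference varied from library to library. In both, edgeR pools the spread over genes, so a very small p-value does not stand for many replicates.

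None of the 9 genes was called between DOCA-salt and Sham in whole libraries, where 0% of the 16564 genes tested were called (edgeR; 1399 genes had an unadjusted p under 0.05). A difference in such sums can be more nuclei of a type or more RNA per nucleus, and these cannot be told apart there. *Th* stood at 11.1, 8.14, 7.10 and 13.9 CPM and *Ddc* at 51.4, 37.7, 62.7 and 52.4 CPM. The DOCA-salt and Sham ranges of *Th* crossed, while those of *Ddc* stood next to each other without overlap, with DOCA-salt lower (log2 fold change -0.42, SE 0.19, adjusted p = 0.602, edgeR). *Hdc* stood at 33.7, 11.2, 19.8 and 16.5 CPM, its highest and its lowest value both in DOCA-salt.

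The transporters followed the same split. *Slc6a3* stood at 13.9, 1.50, 5.98 and 5.79 CPM, so the DOCA-salt pools enclosed the closely spaced Sham pools (log2 fold change 0.30, SE 0.85, adjusted p = 0.933, edgeR). *Slc18a2* stood at 80.8, 37.7, 40.7 and 47.4 CPM, again with the DOCA-salt pools on either side. The breakdown enzyme *Maob* stood at 21.9, 11.9, 21.5 and 23.3 CPM, with only DOCA-salt 2 apart from the rest.

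Both *Drd1* and *Drd2* were higher in each DOCA-salt pool than in each Sham pool. The share of all genes whose CPM separated the groups in this way is not given here. This separation and that of *Ddc* can therefore not be read as unusual. *Drd1* stood at 38.9, 7.80, 5.46 and 5.84 CPM (log2 fold change 1.97, SE 0.66, adjusted p = 0.572) and *Drd2* at 18.1, 11.3, 8.09 and 7.19 CPM (0.89, SE 0.26, adjusted p = 0.572, both by edgeR). *Drd5*, at 1.44, 4.47, 2.78 and 2.35 CPM, had its extremes in the DOCA-salt pools. Striatal-type nuclei carried 770 of the 1455 *Drd1* UMIs (52.9%) and 316 of the 677 *Drd2* UMIs (46.7%) of DOCA-salt 1, and none in any other library. Outside that gate *Drd1* stood at 20.1 CPM and *Drd2* at 10.6 CPM in DOCA-salt 1, and the log2 fold changes were 1.23 and 0.48, not called.

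**Figure D1:**
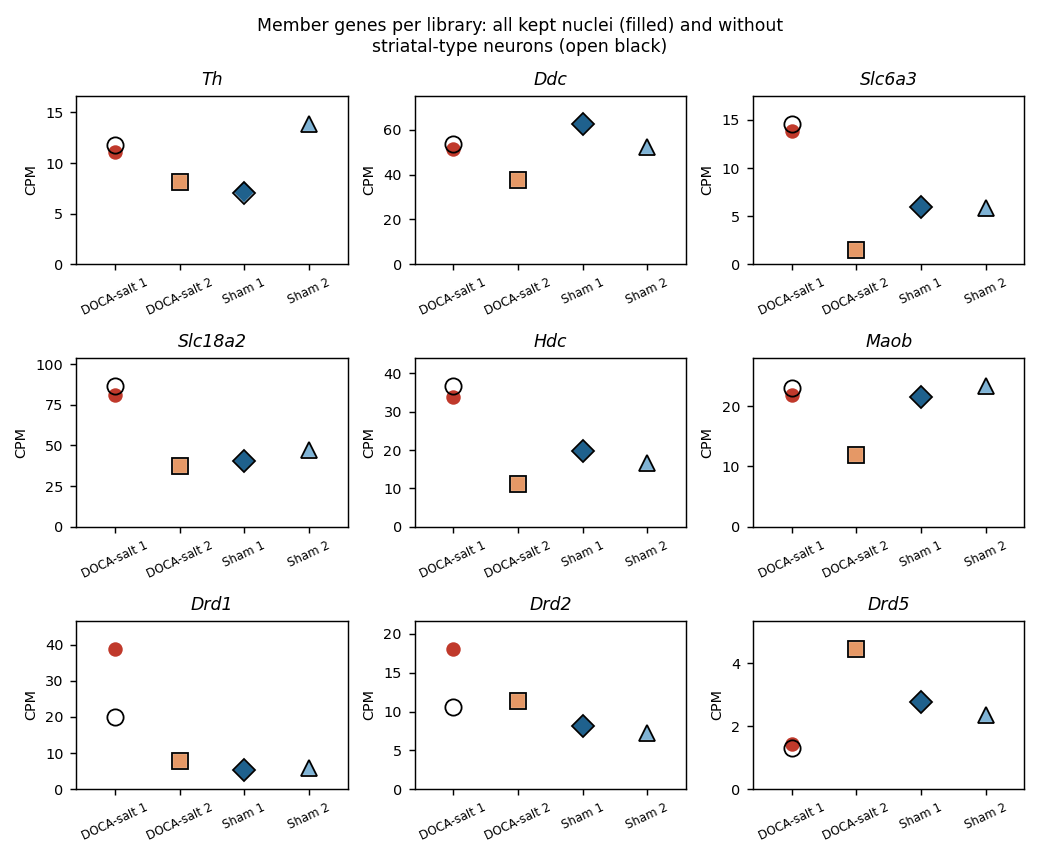
Level of each of the 9 genes (vertical axis, CPM, from 0) over all kept nuclei of each library (filled symbols), and without striatal-type nuclei (open black symbols, which coincide with the filled ones outside DOCA-salt 1). The DOCA-salt pools lie far apart for *Slc6a3* (13.9 and 1.50 CPM), *Hdc* (33.7 and 11.2) and *Drd1* (38.9 and 7.80), and without striatal-type nuclei *Drd1* falls to 20.1 CPM.

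The calls depended on which DOCA-salt pool was in the fit. Without DOCA-salt 1, 771 of 16929 genes were called (4.55%, with 3.13% lower) and *Slc6a3* (log2 fold change -1.98, adjusted p = 0.0353) and *Maob* (-0.92, adjusted p = 0.0423) were lower in DOCA-salt. Without DOCA-salt 2, 414 of 17023 genes were called (2.43%, with 1.08% higher), and 5 of the 9 were higher: *Slc6a3* (1.15, adjusted p = 0.0315), *Slc18a2* (0.79, 0.0248), *Hdc* (0.81, 0.0493), *Drd1* (2.69, 0.00013) and *Drd2* (1.16, 0.0245). *Slc6a3* thus passed the test in opposite directions with either pool alone. Each of these fits has a lone DOCA-salt pool, assumed to vary like the Sham pools. Without Sham 1 or Sham 2, 0.00586% and 0.0293% of genes were called and none of the 9. With all 4 pools, DESeq2 called 0.646% of genes and none of the 9, a crossed pairing of the pools as a block 0.35% and none, and edgeR without the filter of low counts 0.615%, among them *Drd1*.

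The other genes of the pathways gave no call either. Lists of synthesis and cofactor, transport, breakdown, further dopamine and histamine receptor, dopamine receptor partner, transcription factor, fast transmitter and hormone receptor genes held 66 genes, 53 were tested and 0 were called in either direction. Their medians lay between -0.12 and 0.57 on the log2 scale against 0.03 over all genes tested, with the highest for the dopamine receptor partners, which include the striatal genes *Ppp1r1b* and *Adora2a*.

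Within gated classes the treatment comparison again gave no call among the 9. In 10 classes with at least 10 nuclei in every library and at least 1 of the genes tested, 54 tests gave 0 calls. The lowest adjusted p was 0.241 for *Ddc* in *Ghrh* neurons (edgeR). Of the 54 tests 12 had an unadjusted p under 0.05. The share of all genes under that limit in these fits is not given here, so the 12 cannot be read as many or few. Across the 12 classes fitted the share of genes called was 0% in neurons and GABAergic neurons, 0.00653% in the other neurons outside the peptide and regional gates, 0.00751% in glutamatergic neurons, 0.0141% in microglia and 0.0183% in endothelial cells. It was 0.029% in mature oligodendrocytes, 0.0647% in their precursors, 0.092% in ventromedial neurons, 0.134% in *Ghrh* neurons, 0.243% in mural cells and 0.416% in astrocytes. *Ddc* in *Ghrh* neurons stood at 25 and 19.9 CPM in the DOCA-salt pools and at 84.1 and 62.2 CPM in the Sham pools, from 15, 4, 12 and 33 UMIs. The groups did not overlap there, but the DOCA-salt 2 value rests on 36 nuclei.

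Among the listed pathway genes 3 calls were made within classes. *Meis2*, a transcription factor, stood at 109.4, 34.6, 14.0 and 15.9 CPM in astrocytes and was higher in DOCA-salt (log2 2.09, SE 0.43, adjusted p = 0.00960), with 0.0914% of genes higher and 0.325% lower there. Without DOCA-salt 1 it was 1.17 and not called (adjusted p = 0.0524). It was also higher in the neurons outside the peptide and regional gates (log2 3.27, SE 0.21, adjusted p = 0.0442), where it was the single gene called. That call was lost with every barcode (2.98, adjusted p = 0.198) and with the stricter gate (3.36, adjusted p = 0.0788), and the one in astrocytes with the stricter gate (1.94, adjusted p = 0.116). In striatal-type neurons of DOCA-salt 1 its level was 709.0 CPM, and the part of such nuclei in these calls was not tested. *Prlr*, the prolactin receptor, stood at 60.2, 42.7, 100.8 and 110.3 CPM in astrocytes, lower in DOCA-salt (log2 -1.12, SE 0.26, adjusted p = 0.0426), a call lost without DOCA-salt 2 (-0.84), Sham 1 (-1.15) or Sham 2 (-1.05) and with DESeq2 (-1.09, adjusted p = 0.215), every barcode, doublets removed or the stricter gate.

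The share of nuclei with at least 1 UMI depends on depth, which differed between libraries. *Th* was found in 3.05%, 2.30%, 5.40% and 5.23% of kept nuclei, *Hdc* in 3.30%, 1.78%, 5.99% and 3.30%, *Slc6a3* in 3.08%, 0.423%, 4.54% and 2.05% and *Ddc* in 12.8%, 11.0%, 36.5% and 18.7%. Unthinned, the groups did not overlap for *Th*, *Ddc*, *Hdc* and *Maob*, all lower in DOCA-salt, which is 4 of 9 where 75.7% of 17629 genes did not overlap. With each nucleus thinned to 1000 UMIs (1978, 3603, 12 and 925 shallower nuclei left out), *Th* was in 0.792%, 0.797%, 0.411% and 1.19% and *Hdc* in 1.56%, 0.673%, 1.23% and 0.893%, and both overlapped. *Ddc* and *Maob* stayed lower and *Drd1* and *Drd2* were then higher in DOCA-salt, 4 of 9 where 43.4% of 15190 genes did not overlap.

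*Drd1* after thinning was in 3.35%, 0.889%, 0.456% and 0.659% of nuclei and *Drd2* in 1.66%, 1.16%, 1.10% and 0.790%. Most of the height of *Drd1* was in DOCA-salt 1. *Ddc* after thinning was in 4.39%, 3.78%, 5.25% and 4.73%, a narrow range among the 4 libraries.

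Detection in cells that should lack a gene gave the background. Mature oligodendrocytes held *Th* in 0%, 0.766%, 0% and 1.29% of thinned nuclei against 0.871%, 0.847%, 0.582% and 1.11% of thinned neurons, so the shares in neurons of DOCA-salt 2 and Sham 2 were near or below this background. *Hdc* in thinned oligodendrocytes was 0%, 1.34%, 0% and 0.214% against 1.62%, 0.608%, 1.10% and 0.887% in neurons, so DOCA-salt 2 again did not exceed it. *Slc6a3* stood at 0%, 0%, 0% and 0.642% against 0.993%, 0.111%, 0.712% and 0.465%. In the comparisons of positive nuclei below, nuclei were called positive for a gene at 2 or more UMIs.

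Between classes, 153 tests of the 9 genes over 17 comparisons, with the library as a block, gave 8 calls higher and 45 lower. Over all genes 6.51% of such tests were higher and 6.3% lower, so the share higher among the 9 was near that of all genes and the share lower was above it. The comparisons share most of their reference neurons, so a gene high in a single class can be called lower in several others. For *Drd1*, striatal-type nuclei held 770 of the 1164 UMIs in neurons of DOCA-salt 1. Glial and vascular classes were compared with neurons, where 38.9% of genes were called for astrocytes, 32.3% for mature oligodendrocytes, 21.3% for their precursors, 17.3% for microglia, 17.6% for endothelial cells, 8.04% for mural cells and 14.1% for tanycytes. Each neuronal class was compared with the neurons outside it. A class with under 10 nuclei in 1 library was compared without that library: tanycytes and the *Agrp*, *Pomc* and *Tac2* neurons without DOCA-salt 2, suprachiasmatic and *Sim1* neurons without DOCA-salt 1, and striatal-type neurons without Sham 1.

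*Th* was higher in *Ghrh* neurons, the cells that make growth hormone-releasing hormone, where 6.12% of genes were called. Its level there was 104.8, 39.7, 133.1 and 101.8 CPM from 63, 8, 19 and 54 UMIs, against 11.1, 8.40, 8.40 and 13.9 CPM in all neurons. Each library was higher in *Ghrh* neurons, by 9.63-fold in the fit (log2 3.27, SE 0.22, adjusted p = 4.94e-46, edgeR), and leaving out any pool gave between 3.12 and 3.43. *Ghrh* neurons were 1.60%, 0.290%, 0.672% and 1.34% of UMIs in these libraries but carried 15.1%, 1.42%, 12.6% and 9.84% of *Th* UMIs. *Slc6a3* stood there at 6.66, 0, 7.01 and 3.77 CPM, from 4, 0, 1 and 2 UMIs, against 13.8, 1.53, 6.54 and 5.49 CPM in all neurons, and did not pass the test (log2 -0.85, adjusted p = 0.533), while *Slc18a2* (log2 -0.79) was lower than in other neurons, a call lost without DOCA-salt 1 (-0.89, adjusted p = 0.0796) or Sham 2 (-0.75, adjusted p = 0.0690). *Slc18a3*, the vesicular acetylcholine transporter, was higher (log2 4.32), at 69.9, 14.9, 35.0 and 52.8 CPM against 6.26, 0.300, 0.388 and 1.67 CPM.

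*Th* was called lower in ventromedial neurons, in glutamatergic neurons and in *Agrp* neurons. In ventromedial neurons it stood at 3.33, 0.671, 1.32 and 2.87 CPM (log2 -2.54, SE 0.33, adjusted p = 1.31e-05), and 8 of the 9 genes, all but *Drd1*, were lower there, where 16.9% of genes were called and 8.33% were lower. Of these, *Th*, *Slc18a2* and *Maob* stayed called with any library left out. In glutamatergic neurons *Th* (log2 -1.57), *Slc18a2* (-1.30), *Hdc* (-1.60) and *Drd1* (-1.17) were lower and 8.9% of genes were called (4.01% lower), while GABAergic neurons gave 0 calls (2.73% of genes). Most *Th*-positive neurons (76.4%, 60.6%, 70.6% and 80.7%) were assigned to neither of these transmitter classes. In glutamatergic neurons *Slc18a2* lost its call without DOCA-salt 2 (-1.06) or Sham 2 (-1.02), and *Drd1* without DOCA-salt 1 (-0.57) or DOCA-salt 2 (-1.19). In *Agrp* neurons 6 of the 9 were called lower (*Th*, *Ddc*, *Slc6a3*, *Slc18a2*, *Drd1* and *Drd2*), with 9.9% of genes called and 5.67% lower. DESeq2 did not call *Th* there (-0.72, adjusted p = 0.612). All 6 were below the level of all neurons in DOCA-salt 1 and Sham 2. In Sham 1, with 40 *Agrp* nuclei, *Ddc*, *Slc6a3* and *Drd2* were below it and the others were not clearly so. *Slc18a2* stood there at 66.4 CPM against 42.1 CPM in all neurons, *Drd1* at 6.22 against 5.71 CPM and *Th* at 8.296 against 8.4 CPM.

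*Ddc* was found in nearly all classes, at different levels. Its level in neurons was 53.8, 39.5, 63.4 and 53.8 CPM and in mature oligodendrocytes 65.6, 37.7, 77.6 and 50.4 CPM, a pair of ranges that crossed. In astrocytes it stood at 32.8, 21.1, 38.8 and 40.9 CPM (log2 -0.55, SE 0.14, adjusted p = 0.00173), and without DOCA-salt 2 the difference was -0.43 and not called (adjusted p = 0.0581). It was also lower in oligodendrocyte precursors (log2 -0.83, SE 0.22, adjusted p = 0.00188), *Sim1* neurons (-0.69, SE 0.14, adjusted p = 0.00395), tanycytes (-1.28, SE 0.33, adjusted p = 0.00186) and *Agrp* neurons (-0.62, SE 0.12, adjusted p = 0.000327). DESeq2 called neither of the last pair (adjusted p = 0.131 and 0.0516), nor *Ddc* in *Sim1* neurons (0.0836). The gene overlaps the noncoding 1700042O10Rik on the other strand (*Ddc* spans chr11:11814101-11898144, minus strand).

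*Slc18a2* was higher in *Pomc* neurons, the melanocortin neurons of the ARC. It stood at 143.8 CPM in DOCA-salt 1 and 46.0 and 94.6 CPM in the Sham pools, from 153, 8 and 105 UMIs. All neurons of these libraries held 87.4, 42.1 and 51.7 CPM, so Sham 1, with 16 *Pomc* nuclei, differed little. The difference was 1.71-fold (log2 0.77, SE 0.12, adjusted p = 1.04e-08, edgeR), and 7.51% of genes were called in that comparison. *Slc18a2* was lower than in neurons in astrocytes, mature oligodendrocytes, oligodendrocyte precursors, endothelial cells and tanycytes, with log2 fold changes between -1.39 and -0.82, though the call in endothelial cells was lost without DOCA-salt 2 (-0.79, adjusted p = 0.127). *Slc6a3* had 0 UMIs in the endothelial cells of all 4 libraries.

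*Maob* was the only one of the 9 called higher in a glial class. It stood at 38.3, 27.1, 48.1 and 39.8 CPM in astrocytes against 21.9, 10.5, 19.6 and 22.3 CPM in neurons (2.34-fold, log2 1.23, SE 0.16, adjusted p = 3.5e-08, edgeR). Astrocytes were higher in each library, and 38.9% of genes were called between these classes. Astrocytes carried between 3.42% and 6.80% of the *Maob* UMIs of a library. Among other breakdown genes tested there, *Akr1b3* was lower than in neurons (log2 -0.40) and the following were higher. *Aldh2*, an aldehyde dehydrogenase, stood at 138.2, 150.9, 108.6 and 125.1 CPM (log2 1.07, SE 0.10), *Aldh1a1* rose by 1.56, *Hnmt* by 0.58 and *Maoa* by 0.52 on the log2 scale. *Hnmt* and *Akr1b3* each lost the call with some library left out, and *Maoa*, *Aldh2* and *Aldh1a1* did not.

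The receptors had separate places. *Drd1* was higher in suprachiasmatic neurons, which hold the circadian clock, with 33.9 CPM in DOCA-salt 2 beside 14.3 and 24.5 CPM in the Sham pools (3.99-fold, log2 2.00, SE 0.27, adjusted p = 1.24e-07, edgeR; 5.82% of genes called). *Drd2* was higher in *Tac2* neurons, neurokinin B cells of the ARC, at 31.4 CPM in DOCA-salt 1 and 17.2 and 40.8 CPM in the Sham pools (2.95-fold, log2 1.56, SE 0.30, adjusted p = 2.16e-05; 4.03% of genes called), from 17, 4 and 24 UMIs. *Drd5* was higher in *Sim1* neurons, a class of the paraventricular region, at 14.6 CPM in DOCA-salt 2 and 18.3 and 5.89 CPM in the Sham pools (4.07-fold, log2 2.03, SE 0.34, adjusted p = 0.000401; 2.73% of genes called), from 38, 14 and 4 UMIs. In each of these 3 classes every library used was above its other neurons.

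*Drd1* and *Drd2* were also called higher in striatal-type neurons, where 3.1% of genes were called, but from DOCA-salt 1 alone: 229.5 and 94.2 CPM there against 0 UMIs in the 58 nuclei of DOCA-salt 2 and the 11 of Sham 2. DESeq2 gave log2 fold changes of -0.22 and -0.50 in place of 2.89 and 2.37. In the same library *Drd1* reached 83.1 CPM in endothelial cells, 66.2 in tanycytes and 47.0 in microglia, from 11, 42 and 11 UMIs. Neurons outside the striatal-type gate held 15.2 CPM, so those glial levels were above those of its other neurons. Whether free RNA of striatal-type nuclei entered these classes was not tested.

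**Figure D2:**
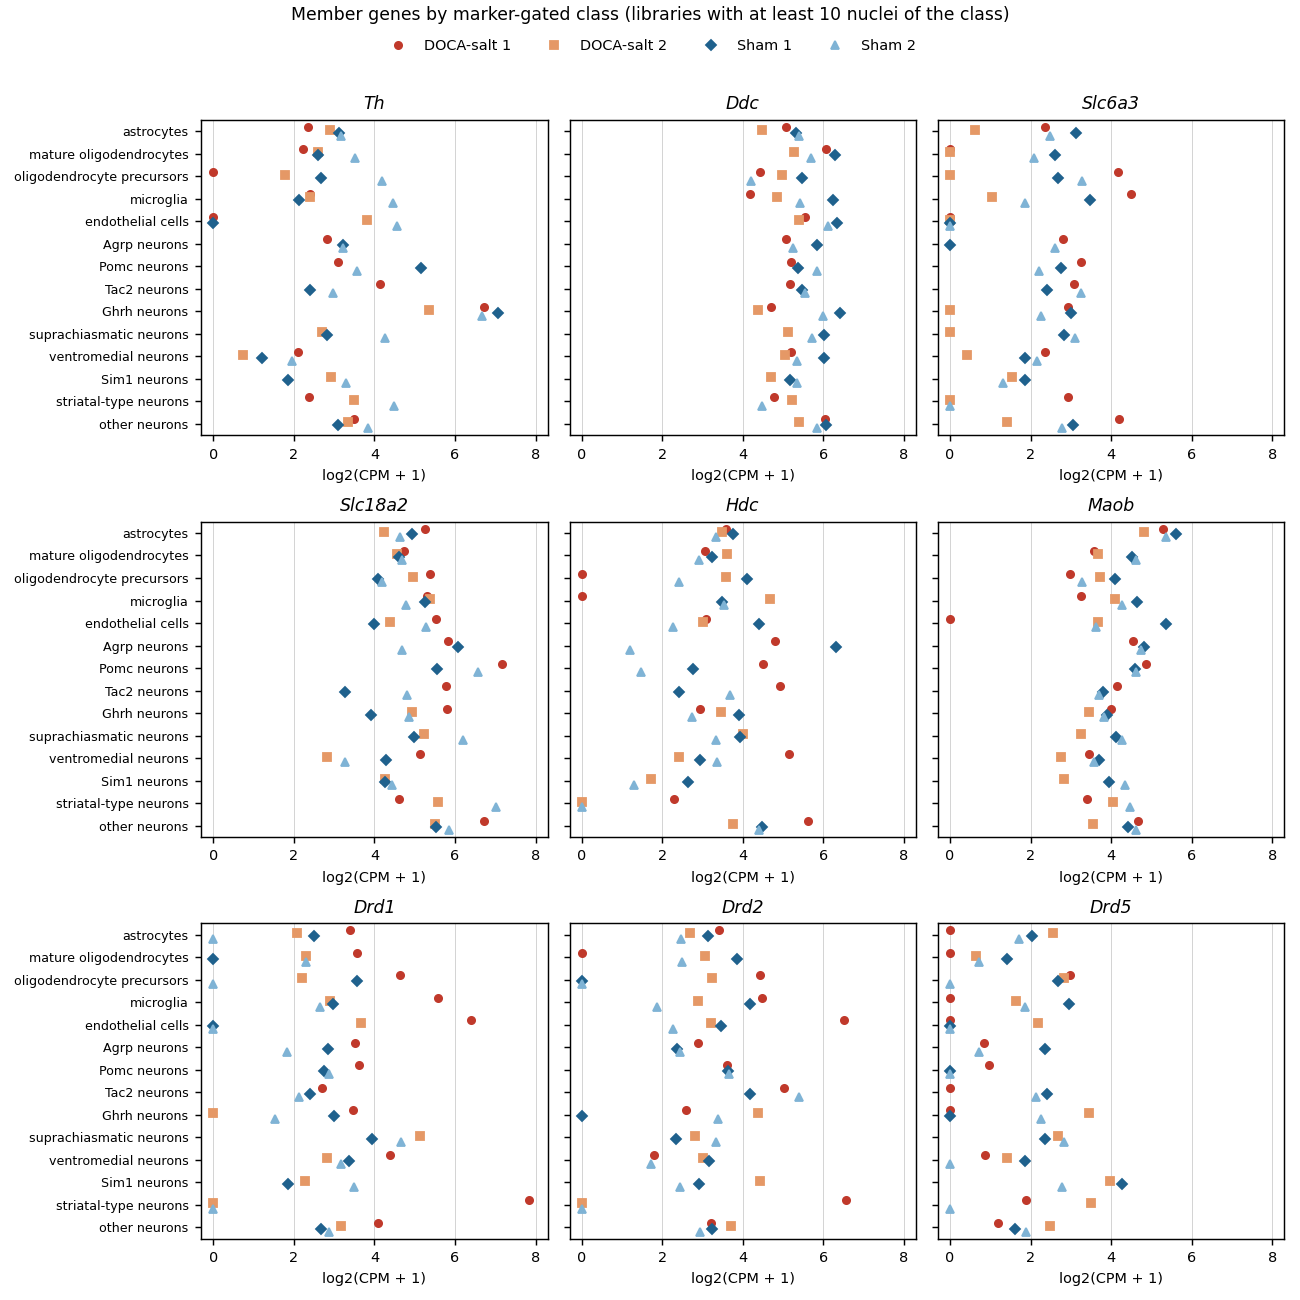
Level of each of the 9 genes, 1 per panel, as log2(CPM + 1) on the horizontal axis, by gated class, with a symbol for each library that held at least 10 nuclei of the class. *Th* stands out in *Ghrh* neurons of every library, *Ddc* was found in nearly every class, and *Drd1* and *Drd2* peak in the striatal-type neurons of DOCA-salt 1, at 229.5 and 94.2 CPM.

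Positive neurons were then compared with the other neurons of their library to ask which of the 9 occurred together. Neurons with 2 or more UMIs of *Hdc* numbered 110, 54, 18 and 37, of *Slc6a3* 88, 13, 14 and 22, of *Th* 55, 66, 17 and 57, and of *Slc18a2* 435, 366, 103 and 232. Positive nuclei were deeper than others, by medians of 5530, 6425, 15460 and 9655 UMIs against 2875, 2930, 8852 and 3967 for *Hdc*, so shares are also given with nuclei thinned to 2000 UMIs.

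*Hdc*-positive neurons mostly carried the vesicular transporter. *Slc18a2* was found in 93 of 110, 46 of 54, 15 of 18 and 31 of 37, or 84.6%, 85.2%, 83.3% and 83.8%, against 12.9%, 9.03%, 18.9% and 12.4% of other neurons. The exact 95% intervals, which cover counting error only, were 76.4% to 90.7% in DOCA-salt 1 and 72.9% to 93.4% in DOCA-salt 2. After thinning the shares were 70.7%, 74.5%, 55.6% and 66.7% against 8.29%, 5.59%, 5.60% and 6.63%. The 4 libraries thus gave like shares at very different depths, and the level was 1055, 1012, 763 and 845 CPM against 60.6, 32.7, 29.9 and 39.8 CPM (22.7-fold, log2 4.50, SE 0.08, edgeR). In this comparison 6.42% of genes were called.

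*Maob* was the second gene of the set to rise in *Hdc*-positive neurons, to 152.7, 194.5, 173.5 and 111.2 CPM against 18.3, 9.17, 17.0 and 20.9 CPM (9.78-fold, log2 3.29, SE 0.15). These levels were above those of astrocytes in every library. *Maoa*, the other monoamine oxidase, was 157.7, 189.3, 88.7 and 101.3 CPM against 42.8, 52.6, 43.5 and 47.1 CPM (log2 1.58). *Ddc* did not pass (log2 -0.02, adjusted p = 0.976), and neither *Th* nor *Slc6a3* did: *Th* was seen in 5 of 110, 3 of 54, 0 of 18 and 2 of 37. *Drd1* was lower (log2 -1.79), a call that was lost without DOCA-salt 1 (-0.89, adjusted p = 0.715).

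Of 50 listed pathway genes tested in *Hdc*-positive neurons, 6 were called higher and 13 lower. Not all of the lower ones are named here. *Hrh3*, the histamine H3 autoreceptor, stood at 276.4, 204.9, 154.2 and 222.3 CPM against 83.4, 59.9, 52.2 and 70.1 CPM (log2 1.69). *Hcrtr2*, an orexin receptor, rose by 1.26, the monoamine transporter *Slc29a4* by 0.97 and the transcription factor *Lef1* by 2.99 on the log2 scale. *Gad1*, which makes GABA, was higher (log2 1.02), while *Gad2*, the other GABA enzyme (-0.62), and *Slc32a1*, the vesicular GABA transporter (-0.36), were lower. Of these named genes and *Maoa*, 8 in all, 6 stayed called with any library left out. *Slc29a4* did not without DOCA-salt 1 (0.87, adjusted p = 0.132), nor *Slc32a1* without DOCA-salt 1, DOCA-salt 2 or Sham 1. *Hnmt*, which breaks histamine down, did not pass, at 7.57, 33.7, 7.71 and 12.4 CPM from 6, 13, 2 and 5 UMIs.

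*Slc6a3*-positive neurons mostly carried *Slc18a2* and *Ddc*, with 1.77% of genes called. *Slc18a2* was found in 87.5%, 76.9%, 92.9% and 81.8% and *Ddc* in 77.3%, 53.9%, 78.6% and 68.2%, and both were higher in CPM (5.13-fold, log2 2.36, SE 0.13, and 3.88-fold, log2 1.95, SE 0.14). After thinning *Slc18a2* was in 38.4%, 50.0%, 35.7% and 57.1% against 8.94%, 5.88%, 5.92% and 6.94% of other neurons. *Hdc* was found in 5 of 88, 0 of 13, 0 of 14 and 0 of 22, and its level was lower (log2 -2.05, adjusted p = 0.000133 by edgeR and 0.134 by DESeq2).

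*Th* was found in 27 of 88, 8 of 13, 4 of 14 and 17 of 22 *Slc6a3*-positive neurons, unthinned. That is 30.7%, 61.5%, 28.6% and 77.3%, against 2.98%, 2.62%, 6.24% and 5.35% of other neurons. The *Th* level was 50.8, 174.5, 22.2 and 170.4 CPM, high in DOCA-salt 2 and Sham 2 and low in DOCA-salt 1 and Sham 1, so the split ran across both groups (8.76-fold against other neurons, log2 3.13, SE 0.24). *Slc6a3*-positive neurons without *Th* numbered 61, 5, 10 and 5. Their median depth was 8361, 5509, 13730 and 3697 UMIs, against 8981, 11920, 13520 and 14180 in those with *Th*. In DOCA-salt 2 and Sham 2 those without *Th* were thus much shallower. A *Th* transcript missed for depth cannot be told apart there from a neuron without *Th*.

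*Slc17a6* and *Gad2* of *Slc6a3*-positive neurons differed between libraries in the same way with and without *Th*, and *Gad1* did not. *Slc17a6*, the vesicular glutamate transporter VGLUT2, stood at 241.8, 107.5, 324.6 and 154.9 CPM in those with *Th* and at 348.1, 60.5, 381.1 and 119.1 CPM in those without. *Gad2* stood at 273.6, 666.7, 263.8 and 447.9 CPM with *Th* and at 163.2, 604.5, 236.3 and 675.0 CPM without. With and without *Th*, DOCA-salt 1 and Sham 1 were thus higher in *Slc17a6* and lower in *Gad2* than DOCA-salt 2 and Sham 2. *Gad1* stood at 248.1, 182.8, 243.5 and 364.2 CPM with *Th*, where DOCA-salt 2 was lowest, and at 134.2, 302.2, 76.2 and 675.0 CPM without. *Nr4a2*, a transcription factor of midbrain dopamine neurons, stood at 73.2, 96.8, 121.7 and 16.7 CPM in those with *Th*, with DOCA-salt 2 above DOCA-salt 1. It stood at 159.6 and 228.7 CPM in those without *Th* of DOCA-salt 1 and Sham 1. In those of DOCA-salt 2 and Sham 2 it was at 0, from 5 nuclei each with medians of 5509 and 3697 UMIs. The nuclei were chosen by their own *Th* counts, so these are descriptions. Glutamatergic neurons carried 21.5%, 5.77%, 22.1% and 7.86% of all *Slc6a3* UMIs. Their *Slc6a3* level was 19.5, 0.787, 9.23 and 3.40 CPM against 13.8, 1.53, 6.54 and 5.49 CPM in all neurons. It was thus above that of all neurons in DOCA-salt 1 and Sham 1 and below it in DOCA-salt 2 and Sham 2.

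**Figure D3:**
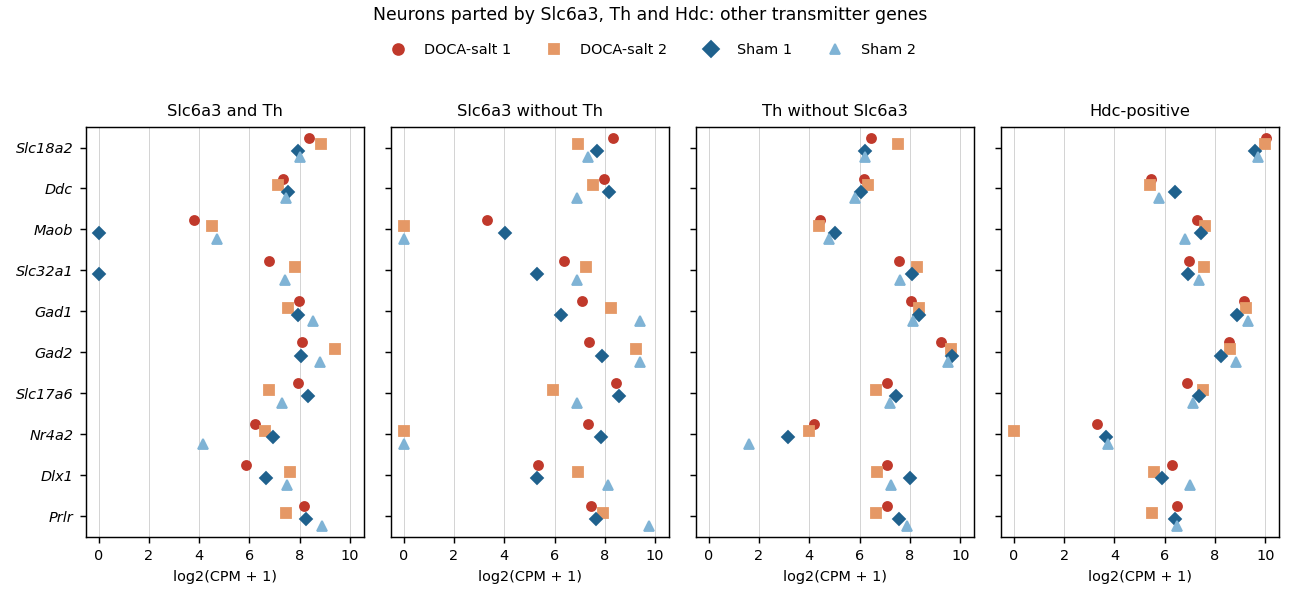
Levels of 10 genes as log2(CPM + 1) in neurons positive for *Slc6a3* with *Th*, for *Slc6a3* without *Th*, for *Th* without *Slc6a3*, and for *Hdc*, with a symbol for each library. In *Slc6a3*-positive neurons with and without *Th*, DOCA-salt 1 and Sham 1 lie above the other libraries for *Slc17a6* and below them for *Gad2*. *Slc18a2* is high in *Hdc*-positive neurons of all 4 libraries.

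Of 50 listed genes tested over all *Slc6a3*-positive neurons, 7 were called higher and 7 lower, and not all of them are named here. The higher transcription factors included *Nr4a2* (log2 2.59), *Lmx1a* (2.48) and *Lmx1b* (2.52). *Meis2* was lower (-2.22), and the median over the 10 factors tested was 0.44 against -0.05 over all genes. *Lmx1b* had 33, 0, 3 and 0 UMIs in the positive neurons, so its rise was seen in DOCA-salt 1 and Sham 1 only. *Lmx1a* was likewise found in no positive neuron of DOCA-salt 2 or Sham 2. *Gch1*, which makes the cofactor of tyrosine hydroxylase, was the only one of 6 synthesis and cofactor genes tested to rise (log2 1.87), at 18.5, 23.8, 16.6 and 18.9 CPM against 5.76, 3.05, 3.63 and 5.73 CPM. *Prlr* rose in this comparison by 0.66 and *Lepr*, the leptin receptor, by 1.30, the latter from 27, 0, 10 and 1 UMIs. Of the genes named here, *Nr4a2* alone stayed called with any library left out, and DESeq2 did not call it (adjusted p = 0.0969). Without DOCA-salt 1, which held 88 of these nuclei, *Gch1* (2.08, adjusted p = 0.194), *Lmx1a*, *Lmx1b* and *Lepr* were not called and *Meis2* was at 0.01. *Lepr* lost its call also without Sham 1, and *Prlr* without Sham 2.

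*Th*-positive neurons shared less of the set. *Slc6a3* was found in 13 of 55, 15 of 66, 0 of 17 and 18 of 57, *Slc18a2* in 47.3%, 54.6%, 47.1% and 52.6%, and *Ddc* in 36.4%, 45.5%, 41.2% and 47.4%. All 3 were higher than in other neurons: *Slc6a3* 11.6-fold (log2 3.54, SE 0.25, adjusted p = 2.49e-43), *Slc18a2* 3.29-fold (1.72, SE 0.10) and *Ddc* 1.69-fold (0.76, SE 0.13), with 2.21% of genes called and 0.898% higher (edgeR). DESeq2 did not call *Slc6a3* there (log2 3.15, adjusted p = 0.583). *Ghrh* neurons made up 14, 2, 6 and 12 of these nuclei. The shares above are unthinned. Those without *Slc6a3* had medians of 5060, 7294, 15740 and 11600 UMIs, against 2896, 2938, 8922 and 3998 in all neurons. Their *Ddc* level was 71.8, 78.7, 66.2 and 55.8 CPM against 53.8, 39.5, 63.4 and 53.8 CPM in all neurons. In the Sham pools it was thus close to that of all neurons.

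Among listed genes, *Th*-positive neurons held more *Dlx1* (132.8, 134.5, 257.1 and 166.4 CPM against 45.2, 58.4, 73.8 and 90.9 CPM), *Dlx2* and *Pbx3*, 3 of 10 transcription factors tested. Hormone receptors gave 4 of 9 higher: *Prlr* (log2 0.38), *Esr1* (0.78), *Ghsr* (1.57) and the GABA-A subunit *Gabre* (0.80), with a median of 0.38 for the list against -0.04 over all genes. *Gabre* was 99.6, 59.8, 81.8 and 116.6 CPM against 64.3, 27.8, 29.2 and 72.4 CPM. *Slc18a3* rose by 2.49, and *Slc17a6* was lower (-0.69). Of these 9 genes, *Dlx1*, *Gabre*, *Slc18a3* and *Slc17a6* stayed called with any library left out, and *Dlx2*, *Pbx3*, *Prlr*, *Esr1* and *Ghsr* did not. At 3 UMIs for positive nuclei, *Gabre* (0.64) and *Slc18a3* (2.35) lost their calls (adjusted p = 0.177 and 0.106, edgeR). Among *Th*-positive neurons without *Slc6a3*, *Esr1* was found in 14 of 42, 1 of 51, 9 of 17 and 20 of 39. *Slc18a3* was found in 8, 0, 3 and 6 of them. *Ghrh* neurons, a part of the *Th*-positive ones, were also higher in *Esr1*, *Ghsr* and *Slc18a3*, and their share in these rises was not tested.

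*Slc18a2*-positive neurons, taken as a set, were higher in genes of both systems. *Hdc* was 31.5-fold higher (log2 4.98), *Slc6a3* 9.56-fold (3.26), *Th* 3.62-fold (1.86), *Maob* 2.80-fold (1.48) and *Ddc* 2.40-fold (1.26), with 3.35% of genes called and 1.75% higher. *Hdc* was found in 25.8%, 16.7%, 14.6% and 17.7% of them and *Slc6a3* in 25.8%, 6.28%, 18.5% and 10.8%. *Pomc* neurons made up 33, 1, 3 and 23 of them. Within *Hdc*-positive neurons *Slc6a3* was found in 3 of 110, 0 of 54, 2 of 18 and 1 of 37.

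**Figure D4:**
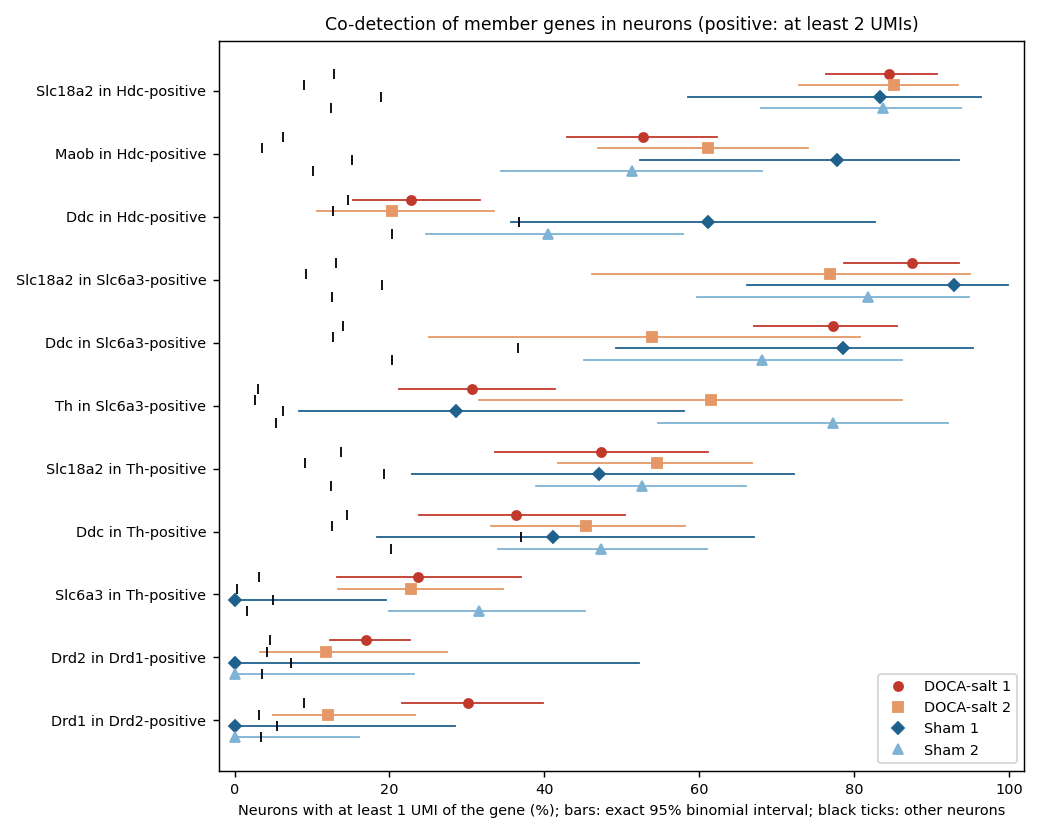
Share of neurons (%) with at least 1 UMI of a gene among neurons positive for *Hdc*, *Slc6a3*, *Th*, *Drd1* or *Drd2* (symbols by library, bars the exact 95% interval) and among the other neurons of the same library (black ticks). *Slc18a2* lies between 83.3% and 85.2% in *Hdc*-positive neurons of every library, while *Th* in *Slc6a3*-positive neurons ranges from 28.6% to 77.3%.

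Neurons positive for *Drd1* numbered 223, 34, 5 and 14 and for *Drd2* 106, 58, 11 and 21. Of the *Drd1*-positive neurons of DOCA-salt 1, 185 were in the striatal-type gate and 0 in every other library, and of the *Drd2*-positive ones 83. *Drd2* was found in 38 of 223 and 4 of 34 *Drd1*-positive neurons of the DOCA-salt pools and in 0 of 5 and 0 of 14 of the Sham pools, and it did not pass the test (log2 1.07, adjusted p = 0.275, without Sham 1; 1.25% of genes called). *Ppp1r1b*, which encodes the dopamine-regulated phosphoprotein DARPP-32, stood at 448.3 CPM in *Drd1*-positive neurons of DOCA-salt 1 but had 0, 0 and 2 UMIs in those of the other libraries. *Adora2a*, an adenosine receptor, stood at 438.6 CPM in *Drd2*-positive neurons of DOCA-salt 1 against 1, 0 and 1 UMIs elsewhere (0.771% of genes called).

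Within *Hdc*-positive and *Slc6a3*-positive nuclei the treatment comparison gave no call among the 9. *Hdc*-positive nuclei over all classes numbered 126, 75, 25 and 54. Of these, 110, 54, 18 and 37 were gated neurons and 1, 15, 3 and 1 lay in glial or vascular gates, so the mix of cells differed. In these nuclei *Ddc* (log2 -0.63, adjusted p = 0.656), *Slc18a2* (0.14) and *Maob* (-0.00) did not pass, with 0.0793% of 8825 genes called. *Slc6a3*-positive nuclei numbered 109, 16, 15 and 32, and *Th* (-0.13), *Ddc* (-0.08) and *Slc18a2* (0.66, adjusted p = 0.926) did not pass, with 0.0156% of 6412 genes called. The 3 genes tested in each were therefore not shown to differ at this depth.

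The genes most like each of 5 members were ranked by the smallest of the 4 log2 ratios of CPM between positive and other neurons, among genes with at least 20 UMIs in the positive neurons. Since 0.5 UMI was added to each sum, ratios of genes with few UMIs, such as *Lmx1b* in 2 of the libraries, depend on that addition. For *Th* they were *Ghrh* (3.91), *Gal*, *Slc10a4*, *Trpc6* and *Neb*. For *Slc6a3* they included *Irx5* (2.49), *Ttc6*, *Lmx1b* and *Gucy2c*. For *Hdc* they were *Wnt9b* (7.20), *Prph*, *Wif1*, *Notum* and *Otop3*, and *Wnt9b* rests on 24 UMIs. *Drd1* (led by *Sh3rf2*, 4.34) and *Drd2* (led by *Ankrd63*, 2.14) shared *Wnt2*, *Ankrd63* and *Ano2* among their 5.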

How the data were processed

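Nuclei of ARC punches were profiled with 10x 3′ chemistry. The authors deposited UMI counts, whole numbers for each gene in each barcode, made with Cell Ranger 3.0.1 on GRCm38/mm10 and limited to barcodes called as nuclei. Whether reads in introns were counted is not stated in the sources used here. The paper's supplement does list reads mapped to introns apart from those mapped to exons and to the transcriptome. In each library the share mapped to the transcriptome was below that mapped to exons.

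As in the study, a nucleus needed over 200 and under 7000 genes, under 25000 UMIs and under 15% of UMIs from mitochondrial genes. For a glial, vascular, peptide or regional class, at least 3 marker genes of its list had to have a UMI. The list's UMIs also had to be at least 3 times those of an average nucleus of the same depth (the ratio). Neurons needed 3 marker genes and a ratio of at least 0.5 for the neuron list, and glial and vascular classes a ratio under 0.75 for it. GABAergic and glutamatergic neurons needed a ratio of at least 1.5 for their own list and under 0.5 for the other. No minimum number of marker genes applied to them. No gene of the 9 was a marker, and these thresholds were set after the data were seen. Of the kept nuclei 3188 passed no gate. Nuclei with both neuron and glial markers (646, 956, 229 and 785) were also left out of every class. So were those that passed several glial or vascular gates with no clear lead (77, 335, 55 and 146). For each class and library the UMI counts were added up and tested with edgeR 4.0.16 (TMM, filterByExpr, quasi-likelihood) in R 4.3.3, where at least 10 nuclei were present per library. The study's test per nucleus treats nuclei as replicates and was not used. Shares have exact Clopper-Pearson 95% intervals (scipy 1.17.1). Scrublet in scanpy 1.11.5 called 0, 0, 2 and 0 doublets and so had not worked, and leaving out the 850, 2860, 39 and 482 highest scores was an alternative. Other alternatives were RLE size factors, DESeq2 1.42.0, no filter of low counts, every barcode, stricter gates, 3 UMIs for positive nuclei, other thinning depths, a replicate block, and leaving out each library. Counts were also simulated with large planted changes (median fitted log2 size 2.02) and the same preset spread for every gene. In the whole-library comparison of 16575 genes, 189 of 194 changed genes were recovered (97.4%), with 5 false calls. Recovery was 94.9% within neurons, 90.5% for astrocytes against neurons and 83.0% for *Hdc*-positive against other neurons. The spread was not taken from these pools, so these shares do not give the power of the treatment comparison.

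The text names the 9 genes, genes of 8 pathway lists that passed the test or stand high in CPM, and the 5 genes most like each of *Th*, *Slc6a3*, *Hdc*, *Drd1* and *Drd2*. Some genes that this rule takes in are not reported here. The members and lists were chosen with earlier results of these data known. Positions are from GENCODE on GRCm38, and promoter sequences from RefSeq.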

Additional observations from a re-analysis of the deposited data

How the results depend on the processing

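No gene of the 9 was called for treatment in whole libraries, but *Drd1* was without the filter of low counts (1 call, log2 1.96, adjusted p = 0.00357, edgeR). Leaving out a library gave between 0 and 5 calls, with the 5 without DOCA-salt 2. Within classes there were 6 calls without the filter and between 0 and 11 with a library left out. Between classes the 53 calls became 24 with DESeq2, 30 with the stricter gate (9 comparisons) and between 22 and 38 with a library left out. Calls over all genes went from 31843 to 19672, to 24321 and to between 16870 and 23176 in these fits with a library left out. Between classes such fits test between 10 and 14 comparisons against 17, since those left with 2 libraries were not fitted, and within classes between 12 and 16 against 12. In positive neurons the 19 calls became 12 with DESeq2 and between 14 and 20 with a library left out. Calls over all genes went there from 2301 to 863 and to between 1154 and 2112. DESeq2 called 107 genes in whole libraries and 0 of the 9.

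The pools share replicate numbers across groups, but the deviations of same-numbered pools correlated at -0.22 over 16564 genes, so the numbers were not taken as pairs. With the replicate block, 0 of the 9 were called in whole libraries, classes or positive nuclei, where 0, 256 and 32 genes were called against 0, 77 and 8 without it. A crossed block, added after the data were seen, gave 0 of the 9 and 58, 623 and 70 genes. Under the replicate block *Slc6a3* reversed to -0.39 and *Drd5* to -0.0134 in whole libraries (crossed, -0.33 and -0.033), *Maob* to 0.0003 in *Hdc*-positive nuclei and *Th* to 0.48 in *Slc6a3*-positive nuclei.

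Other reversals, all of values that were not called unless stated, were as follows, and the cause was not tested. With a library left out, log2 fold changes in whole libraries ran from -0.56 to 0.35 for *Th*, -1.98 to 1.15 for *Slc6a3*, -0.23 to 0.79 for *Slc18a2*, -0.69 to 0.81 for *Hdc* and -0.91 to 0.80 for *Drd5*. In *Hdc*-positive nuclei they ran from -0.0093 to 0.24 for *Slc18a2* and -0.12 to 0.11 for *Maob*, and in *Slc6a3*-positive nuclei from -0.77 to 2.14 for *Th* and -0.60 to 0.24 for *Ddc*. *Slc18a2* in *Hdc*-positive nuclei was -0.0196 at 3 UMIs, and *Maob* there was 0.0056 without the filter and 0.39 with every barcode. *Th* in *Slc6a3*-positive nuclei was 0.30 with DESeq2 and 0.58 with every barcode, where *Ddc* was 0.34. *Drd1* and *Drd2* in striatal-type neurons, both called, were -0.22 and -0.50 with DESeq2. *Meis2* in *Slc6a3*-positive neurons, called, ran from -2.59 to 0.0139 with a library left out, the latter without DOCA-salt 1. All treatment comparisons rest on 2 pools a side or fewer.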

Other observations

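The cofactor and receptor genes of the monoamine pathways also differed between ARC neuron classes, by the same edgeR test with the library as a block. *Gch1* was higher in *Pomc* neurons (log2 1.78, SE 0.32) and in *Agrp* neurons (1.26, SE 0.26) than in other neurons, although *Th* was called lower in *Agrp* neurons. In *Pomc* neurons *Gch1* stood at 23.5 CPM in DOCA-salt 1 and 17.1 CPM in Sham 2 but at 0 in Sham 1, which held 16 such nuclei. *Pcbd1*, which recycles the same cofactor, was higher in both classes (log2 0.43 and 0.44). DESeq2 called neither gene in either class (*Gch1* adjusted p = 0.122 and 0.0885).

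The histamine receptor *Hrh3* was higher in *Agrp* neurons (log2 0.77, SE 0.09), and *Hrh1* was higher in astrocytes than in neurons (1.18, SE 0.15) and in ventromedial neurons than in other neurons (0.87, SE 0.15). *Ghrh* neurons, the class highest in *Th*, were also higher in *Ghsr*, the ghrelin receptor (2.50, SE 0.32), *Ghr*, the growth hormone receptor (1.49, SE 0.15), and *Esr1*, an estrogen receptor (1.91, SE 0.16). *Tac2* neurons were higher in *Nr4a2* (2.72, SE 0.17) and *Prlr* (1.34, SE 0.09), and they were compared without DOCA-salt 2.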
